A study of Mus musculus with 98 samples.

Results

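The 48 potassium and sodium channel genes described here are the genes whose symbols begin with Kcn or with Scn and a digit and whose mean level over all 98 libraries was at least 0.5 TPM, which states each transcript's share of its library after correction for length. They came from 111 genes with such names among 24526 genes with a value, and the other 63 lay below the level. Kcnip3 (0.593 TPM), Kcnj16 (0.653 TPM) and Kcns1 (0.646 TPM) lay just inside it, and Kcnh7 (0.456 TPM), Kcnk10 (0.453 TPM) and Kcnip2 (0.452 TPM) just outside. All 192 splicing events that the deposited splicing table lists for these genes were included, and they fell in 26 of the genes. HSALR mice are homozygous for a human skeletal actin transgene that carries a CUG repeat and serve as a model of myotonic dystrophy, and FVB/NJ mice are their wild type. HSALR mice received PBS, an unconjugated (CAG)7 morpholino oligonucleotide (PMO), or the same oligonucleotide joined to the carrier EEV4 (EEV4-PMO), and FVB mice received PBS.

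In gastrocnemius at 7 days the HSALR groups were PBS (n = 8), EEV4-PMO at 15 and at 30 mg/kg and PMO at 30 mg/kg, with FVB PBS beside them (n = 4 each). EEV4-PMO at 15 mg/kg was also followed in gastrocnemius at 1, 2 and 4 days and in quadriceps at 1, 2, 4 and 7 days, each beside HSALR PBS and FVB PBS mice of 4 days (n = 4 each). From other HSALR quadriceps both newly made RNA, tagged with ethynyl uridine (EU), and total RNA were sequenced, 1 day or 2 days into EEV4-PMO (15 mg/kg, 3 libraries each) and at 4 days of PBS (4 libraries). A last set of HSALR quadriceps was taken at 3 months, from 6 EEV4-PMO libraries (15 mg/kg) and 4 PBS libraries. The transgene is driven by the skeletal actin promoter, so that fibres and not the other cells of the muscle carry the repeat RNA. The labels give no age or sex and do not say that the replicates are separate animals, so p-values measure the spread between libraries.

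An action potential in a muscle fibre is started by voltage-gated sodium channels, built of a pore-forming alpha subunit and beta subunits that set its gating and its place in the membrane. Voltage-gated potassium channels end it, and their current is tuned by auxiliary subunits and by silent subunits, which form no channel alone. Inward rectifier and two-pore potassium channels hold the resting potential, and calcium-activated potassium channels shape the time after a spike. In myotonic dystrophy the fibres fire after a contraction has ended, and the cause best known is mis-splicing of the chloride channel gene Clcn1, brought about by CUG repeat RNA that holds muscleblind splicing proteins. An oligonucleotide of CAG repeats pairs with this RNA.

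The transgene transcript hACTA1 had 5726 to 32980 TPM in the 86 HSALR libraries (median 17032 TPM) and 42.1 to 81.6 TPM in the 12 FVB libraries (median 72.3 TPM), so that each library went with its labelled genotype. The muscle is a mixture in bulk RNA, and fewer cells of a type cannot be told apart from less RNA per cell. Replicate 2 of gastrocnemius at 4 days stood apart, with a summed level of lymphocyte markers of 354 TPM against at most 5.20 TPM in its PBS controls, and it held the highest Kcnn4 (19.8 TPM), Kcnab2 (17.4 TPM) and Kcnk3 (25.4 TPM) of its group, against at most 1.078, 1.04 and 1.49 TPM in the 3 other libraries. The summed level of 6 adipocyte markers was 2628 TPM in this library, against at most 414 TPM in its PBS controls. In FVB quadriceps the highest Kcnk3 level was 29.1 TPM in replicate 1 and 1.13 to 4.06 TPM in the rest, and the same library had the highest adipocyte marker sum, 2363 TPM (group median 294.5 TPM). The part of these cells in the levels was not tested. HSALR PBS replicate 6 of the 7-day gastrocnemius stood apart from the 7 others in Kcnf1 and Kcnk2. Without it the counts given below were 3 higher and 11 lower for genotype, with Kcna2 lost. At 15 mg/kg of EEV4-PMO they were 7 higher and 1 lower with or without it, and at 30 mg/kg 8 and 1, though there Kcnf1 gained a call and Kcne1l lost one.

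Muscle held a few very high channel transcripts and many low ones. Of the 48 genes 9 averaged at least 50 TPM over all libraries and 20 averaged under 2 TPM; 44 of them are described by name. Scn4a, the pore of the skeletal muscle sodium channel, averaged 245.5 TPM and Scn4b, a beta subunit, 236.1 TPM. Of the other sodium channel genes described here, Scn7a averaged 6.03 TPM and Scn2b, Scn3b, Scn2a and Scn3a 0.776 to 1.63 TPM. High potassium channel genes were Kcna7 at 138.6 TPM and Kcnc4 at 87.4 TPM, which encode voltage-gated pores, Kcnj11 at 115.9 TPM, the pore of the channel closed by ATP, and Kcnj2 at 85.0 TPM, the classical inward rectifier. Kcnc1 (63.3 TPM, voltage-gated), Kcnj12 (53.9 TPM, inward rectifier), Kcng4 (42.9 TPM, a silent subunit) and Kcnma1 (37.1 TPM, the large calcium-activated pore) lay below these. Kcnj13 and Kcne3 lay below the level and were not described.

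**Figure D1:**
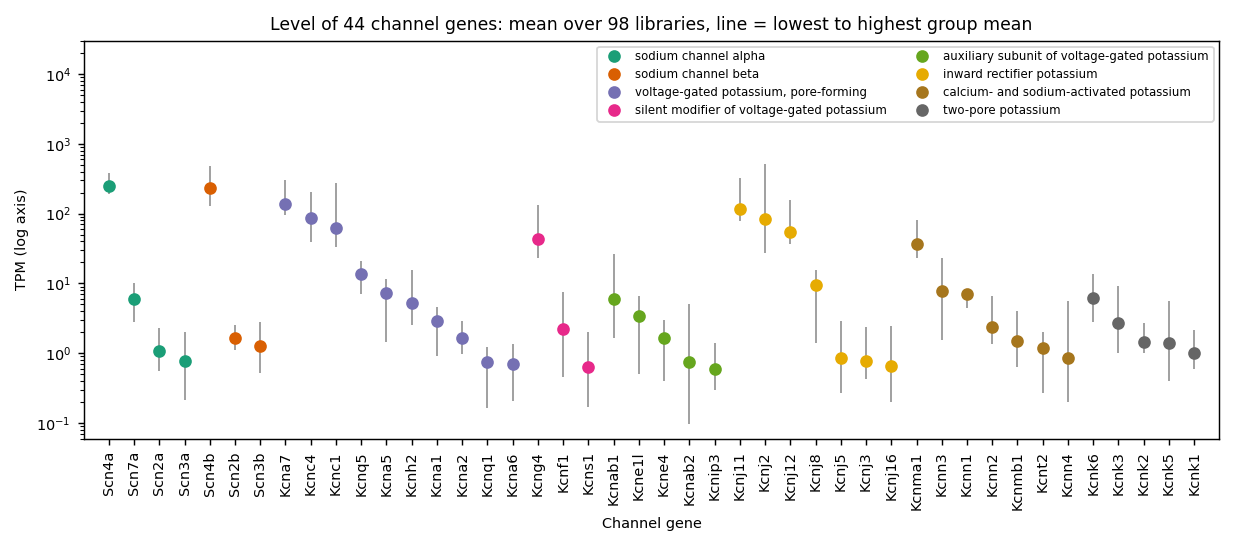
Mean TPM of 44 channel genes over 98 libraries on a logarithmic axis, by class of channel, with a line from the lowest to the highest of the 24 group means. Scn4a sits at 245.5 and Scn4b at 236.1 TPM, while 20 genes sit under 2 TPM.

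The first question was what differs between HSALR and FVB muscle when both received PBS. In gastrocnemius of the 7-day cohort 15 of the 48 channel genes (31.2%) differed, 3 of them higher and 12 lower in HSALR, where 19.1% of all 15139 genes tested did (limma on log2(TPM + 1), adjusted p under 0.05 after Benjamini-Hochberg correction over all genes). The share called lower among all genes was 8.23% and the share called higher 10.8%. In gastrocnemius of the 4-day cohort 7 channel genes were called, 3 higher and 4 lower, where 7.91% of all genes were (6.44% higher and 1.47% lower). In quadriceps 10 were called, 3 higher and 7 lower, where 12.1% of all genes were (6.96% higher and 5.11% lower). The median log2 difference of the 48 genes was -0.0875, -0.0113 and -0.137 in these comparisons, beside 0, 0.0994 and -0.0186 over all genes. Rescaling by the median of ratios moved the median of all genes by -0.10 in the 4-day gastrocnemius, where 3 channel genes were then higher and 6 lower (644 and 487 of all genes). In all 3 comparisons 6 genes passed, 4 of them lower. The share of all genes that passed in all 3 is not given here, so this count has no background beside it. Kcnab1, Kcnf1 and Scn4b were among those lower in HSALR each time, and Kcnn3 and Scn3a were higher each time. The FVB and HSALR libraries of each comparison are its own, and the comparisons share no library. The labels do not say whether the 4-day gastrocnemius and quadriceps came from the same mice, so these comparisons may share animals.

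The sodium channel of the fibre was lower in HSALR muscle in its pore and in the beta subunit Scn4b. Scn4a had 192 to 219 TPM in HSALR gastrocnemius at 7 days (median 198 TPM, n = 8) and 249, 254, 254 and 249.5 TPM in FVB. The groups did not overlap, and the log2 difference was -0.33 (SE 0.04, adjusted p = 8.66e-06). In quadriceps Scn4a was lower by a like amount (-0.35, SE 0.07, adjusted p = 0.00128), and in the 4-day gastrocnemius it had -0.29 (adjusted p = 0.12).

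Scn4b had 135.5 to 204 TPM (median 152 TPM) in HSALR gastrocnemius at 7 days and 239, 247, 214 and 224 TPM in FVB. All HSALR libraries lay below all FVB libraries, with differences of -0.54 (SE 0.09, adjusted p = 2.06e-04), -0.52 in the 4-day gastrocnemius (adjusted p = 0.0149) and -0.43 in quadriceps (adjusted p = 0.00428). Scn3a, a sodium channel pore best known from embryonic neurons, moved the other way at a low level. In quadriceps it had 0.725, 1.16, 0.693 and 0.732 TPM in HSALR and 0.268, 0.190, 0.120 and 0.297 TPM in FVB. Each HSALR library was above each FVB library, and the differences were 0.58 in quadriceps (adjusted p = 2.29e-04), 0.54 at 7 days (adjusted p = 0.0117) and 0.59 at 4 days in gastrocnemius (adjusted p = 0.0264). Scn2a, Scn2b, Scn3b and Scn7a were called in none of the 3. The call of Scn4b at 4 days was lost without HSALR replicate 2 (-0.43, adjusted p = 0.0619), and that of Scn3a at 4 days in 4 of 8 fits that left out 1 library (adjusted p up to 0.0937).

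Among potassium channel genes the widest genotype difference was in Kcnab1, an auxiliary beta subunit that speeds the inactivation of voltage-gated channels. Its level was 1.95 to 3.01 TPM in HSALR gastrocnemius at 7 days (median 2.41 TPM) and 19.87, 17.14, 19.96 and 17.21 TPM in FVB. In quadriceps it was 2.56, 1.03, 1.66 and 1.72 TPM in HSALR and 22.5, 28.8, 28.9 and 24.1 TPM in FVB. No HSALR library came near the FVB range in any of the 3 cohorts. The log2 difference was -2.53 (SE 0.16, adjusted p = 3.28e-10) at 7 days, -2.44 (SE 0.26, adjusted p = 1.4e-05) at 4 days in gastrocnemius and -3.33 (SE 0.22, adjusted p = 4.06e-09) in quadriceps.

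Kcnf1 and Kcns1, which encode silent subunits, were lower as well. Kcnf1 had 0.675 to 1.52 TPM in HSALR gastrocnemius at 7 days (median 0.779 TPM) and 3.39, 2.99, 4.71 and 4.88 TPM in FVB. The groups lay apart, and the difference was -1.39 (SE 0.16, adjusted p = 2.31e-06), beside -1.29 in quadriceps (adjusted p = 1.55e-04) and -0.89 in the 4-day gastrocnemius (adjusted p = 0.0298, lost in 5 of 8 fits without 1 library, up to 0.105).

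Kcns1 had 0.296, 0.0773, 0.279 and 0.379 TPM in HSALR quadriceps and 0.740, 2.08, 1.91 and 3.47 TPM in FVB. It was lower there by 1.21 on the log2 scale (difference -1.21, adjusted p = 2.1e-04) and at 7 days in gastrocnemius (-0.65, adjusted p = 1.76e-04), but had 0.01 in the 4-day gastrocnemius (adjusted p = 0.984). The difference between the 4-day genotype differences of quadriceps and gastrocnemius was -1.22 for Kcns1 (adjusted p = 0.0705). No channel gene passed this test of the tissues, where 0.00661% of all genes did. At an unadjusted p under 0.05 there were 8 channel genes, and the count of all genes at that threshold is not given here. Kcng4, the third silent subunit, was called in none of the 3 comparisons, with 13.3 to 32.8 TPM in HSALR gastrocnemius at 7 days and 13.8 to 40.8 TPM in FVB.

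Kcnn3 was the potassium channel gene that was higher in HSALR muscle each time. It encodes a small-conductance calcium-activated channel that returns to fibres after denervation and has been described in muscle of people with myotonic dystrophy. In quadriceps it had 6.63, 11.6, 8.38 and 6.74 TPM in HSALR and 1.33, 1.49, 2.09 and 1.31 TPM in FVB. The lowest HSALR library was above the highest FVB library by a wide margin, and the difference was 1.85 (SE 0.33, adjusted p = 6.85e-04). In gastrocnemius it was 1.02 (SE 0.17, adjusted p = 1.26e-04) at 7 days and 1.26 (SE 0.36, adjusted p = 0.0358) at 4 days, and the 4-day call was lost in 7 of 8 fits without 1 library (up to 0.135). Of 8 markers of denervated fibres 4 were called higher at 7 days (Chrna1, Musk, Ncam1 and Runx1), and their summed level was 160 to 225 TPM in HSALR and 98.02 to 119 TPM in FVB. In quadriceps 3 were higher, with sums of 132 to 291 TPM in HSALR and 89.3 to 105 TPM in FVB. Their part in the Kcnn3 difference was not tested.

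Kcna7 was higher in HSALR quadriceps (0.44, adjusted p = 0.013) and in gastrocnemius at 7 days (0.32, adjusted p = 0.0059), with 175, 157, 171 and 172 TPM in HSALR quadriceps and 109, 122, 135 and 132 TPM in FVB. These groups did not overlap. Kcnq5, a slow voltage-gated pore, was higher in the 4-day gastrocnemius (0.59, adjusted p = 0.0392) with groups that overlapped, and lost the call in 5 of 8 fits without 1 library (up to 0.134). The two-pore channels Kcnk2 (-0.41, adjusted p = 0.0165) and Kcnk3 (-0.35, adjusted p = 0.0159), and Kcna2 (-0.47, adjusted p = 0.0318), a channel of myelinated axons, were lower at 7 days alone. Kcna1, the axonal partner of Kcna2, had 1.92 to 4.69 TPM in HSALR and 3.66 to 5.72 TPM in FVB there (-0.49, adjusted p = 0.0577). Without FVB replicate 2 Kcnk2 (adjusted p = 0.0914) and Kcnk3 (adjusted p = 0.0888) lost their calls, Kcnk3 also without FVB replicate 1 (0.055), and Kcna2 in 6 of 12 such fits (up to 0.149).

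None of the 7 inward rectifier genes was called in any of the 3 genotype comparisons, where 19.1%, 7.91% and 12.1% of all genes were. With 7 genes this count does not set the class apart. Kcnj2, Kcnj11 and Kcnj12, the abundant ones, had log2 differences of 0.02, 0.25 and -0.07 at 7 days (SE 0.16, 0.11 and 0.08). Beside the 7-day differences 7 of 8 endothelial markers were lower, with a summed level of 219 to 315 TPM in HSALR and 368 to 423 TPM in FVB. Of 10 Schwann cell and axon markers Egr2 was lower, with sums of 124 to 514 TPM in HSALR and 343 to 745 TPM in FVB. Smooth muscle and pericyte markers (3 of 9 lower) and macrophage markers (3 of 7 higher) moved too, at 437 to 508 against 523.4 to 567.6 TPM and at 38.1 to 89.0 against 23.7 to 38.8 TPM. No adipocyte, lymphocyte or slow fibre marker passed, while among 8 fast fibre markers 1 was higher (Myh1) and 5 were lower. In the 4-day gastrocnemius no endothelial marker was called. The part of these cells in the channel differences was not tested. Of 12 other excitability genes of the fibre, Clcn1 was lower in all 3 comparisons (-0.63, -0.64 and -0.87) and Ank3 (0.41, 0.50 and 0.53) and Sntb1 (1.83, 1.97 and 1.42) were higher in all 3; 5, 4 and 5 of the 12 passed as higher and 1, 1 and 3 as lower.

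**Figure D2:**
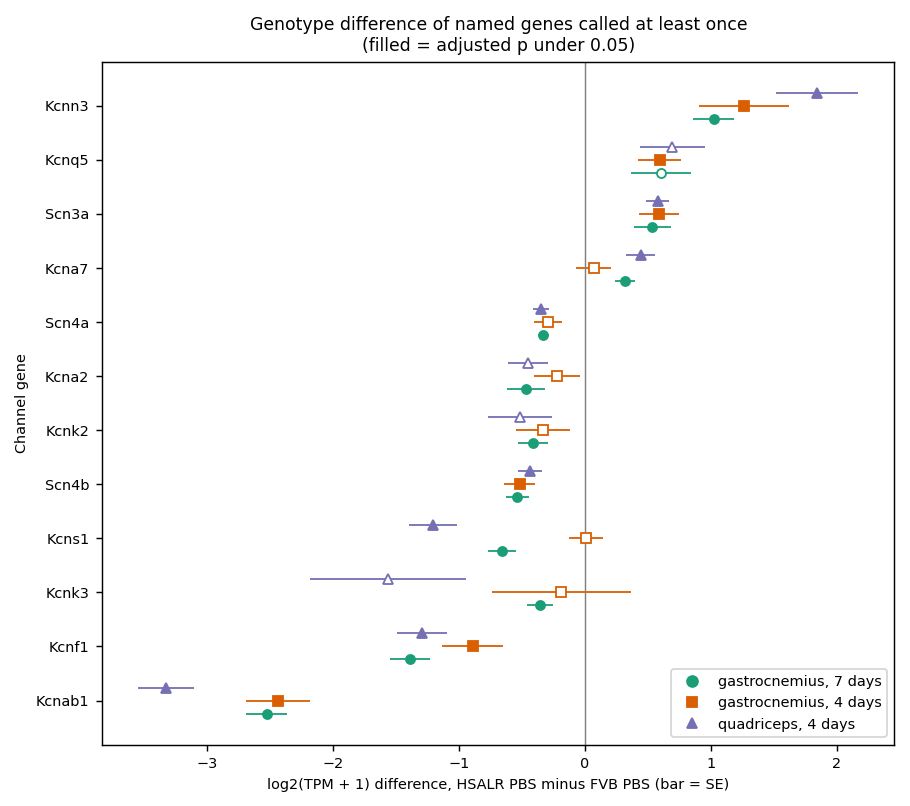
Log2 difference (HSALR PBS minus FVB PBS, on log2(TPM + 1), with its SE) of the named channel genes called in at least 1 genotype comparison, in gastrocnemius at 7 and 4 days and quadriceps at 4 days. Filled points passed adjusted p under 0.05; Kcnab1 lies between -2.44 and -3.33 in all 3 and Kcnn3 between 1.02 and 1.85.

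The dose cohort asked whether the oligonucleotide, with and without the carrier, moves gene levels in HSALR gastrocnemius at 7 days. After PMO at 30 mg/kg none of the 48 channel genes was called (limma), nor was any of all genes (0%), and 3 channel genes and 1185 of all genes had an unadjusted p under 0.05. After EEV4-PMO at 15 mg/kg 8 channel genes were called, 7 higher and 1 lower, where 9.91% of all genes were called (7.03% higher and 2.87% lower). After 30 mg/kg 9 were called, 8 higher and 1 lower, where 13.6% of all genes were (8.67% higher and 4.97% lower). With samples rescaled by the median of ratios, which divides each library by its median ratio to the cohort's average profile, the split at 30 mg/kg was 6 higher and 2 lower (1015 and 1197 of all genes), and at 15 mg/kg 6 and 1 (765 and 765 of all genes). These comparisons share their 8 PBS libraries, and the PBS libraries also served the 7-day genotype comparison.

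Scn4a and Scn4b, which were lower in HSALR muscle, were higher after EEV4-PMO. Scn4a had 241.5, 260.3, 262 and 232 TPM at 15 mg/kg and 263, 274, 265 and 255 TPM at 30 mg/kg, against 184 to 211 TPM after PMO and 192 to 219 TPM after PBS. Every EEV4-PMO library was above every PBS and PMO library. The difference from PBS was 0.31 at the lower dose (SE 0.04, adjusted p = 7.13e-05), 0.40 at the higher (SE 0.04, adjusted p = 1.84e-06) and 0.00 after PMO (SE 0.04, adjusted p = 1). Scn4b had 240, 197, 245 and 220 TPM at 15 mg/kg, 254, 257, 246.5 and 267 TPM at 30 mg/kg, 133 to 182 TPM after PMO and 135.5 to 204 TPM after PBS. Only the lowest library at 15 mg/kg fell within the PBS range, and its differences were 0.50 (SE 0.09, adjusted p = 0.00122) and 0.69 (SE 0.09, adjusted p = 3.07e-05).

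Scn2b, a beta subunit at a low level, was called at 30 mg/kg alone, at 2.32, 2.07, 1.69 and 2.69 TPM against 1.09 to 1.84 TPM after PBS (0.36, adjusted p = 0.0124, and 0.0734 without replicate 4 of the 30 mg/kg group). Scn3a was not called against PBS at either dose (-0.17, adjusted p = 0.539, and -0.27, adjusted p = 0.238).

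Kcnab1 was the potassium channel gene with the largest rise. It had 4.599, 7.33, 5.19 and 3.06 TPM at 15 mg/kg and 4.08, 6.96, 7.45 and 3.49 TPM at 30 mg/kg, against 1.75 to 2.52 TPM after PMO and 1.95 to 3.01 TPM after PBS. All 8 EEV4-PMO libraries were above all PBS libraries, and the differences were 0.79 (SE 0.16, adjusted p = 0.00307) and 0.89 (SE 0.16, adjusted p = 7.57e-04). All 8 also stayed below the FVB libraries of 17.1 to 19.96 TPM.

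Kcnj12 rose at both doses (0.31, adjusted p = 0.0153, and 0.34, adjusted p = 0.00512), though its libraries of 41.5 to 57.4 TPM at 15 mg/kg overlapped the PBS range of 34.0 to 42.9 TPM. Its calls ended after rescaling (0.26, adjusted p = 0.107, and 0.29, adjusted p = 0.0509), and at 15 mg/kg without replicate 3 (0.22, adjusted p = 0.0936). Kcne1l, which encodes an auxiliary subunit also named Kcne5, rose at 30 mg/kg (0.76, adjusted p = 0.0385, lost in 8 of 12 fits without 1 library, up to 0.12, and at 0.0513 after rescaling). At 15 mg/kg Kcnk5, a two-pore channel, rose (0.54, adjusted p = 0.00619) and Kcna7 fell (-0.28, adjusted p = 0.0277, and 0.123 or 0.0547 without replicate 2 or 3). At 30 mg/kg Kcnk5 had 0.10 (adjusted p = 0.651) and Kcna7 -0.21 (adjusted p = 0.0849). Kcnf1 and Kcnn3 were called at neither dose, with 0.45 and -0.34 at 30 mg/kg (adjusted p = 0.0633 and 0.183). Without PBS replicate 6, which had the highest Kcnf1 of its group, Kcnf1 was called at 30 mg/kg (0.51, SE 0.16, adjusted p = 0.0288) and not at 15 mg/kg (0.40, adjusted p = 0.108), and Kcne1l at 30 mg/kg was not called (0.67, adjusted p = 0.0576). The 30 mg/kg libraries had a summed level of denervated fibre markers of 166 to 221 TPM, beside 160 to 225 TPM after PBS, with none of the 8 called. Clcn1 rose at both doses (0.52, adjusted p = 3.4e-05, and 0.73, adjusted p = 1.77e-07).

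EEV4-PMO and PMO differ by the joined carrier, and at the shared dose of 30 mg/kg they were set directly against each other. Of the channel genes 9 were called, 7 higher and 2 lower after EEV4-PMO, where 10.6% of all genes were (5.33% higher and 5.28% lower). After rescaling 6 were higher and 2 lower, with 798 and 1169 of all genes. Scn4a (0.40, adjusted p = 1.58e-05), Scn4b (0.73, adjusted p = 8.81e-05), Kcnab1 (1.06, adjusted p = 7.16e-04), Kcnj12 (0.33, adjusted p = 0.0196) and Kcna5 (0.50, adjusted p = 0.0349) were among those higher. Kcna5 is a voltage-gated pore also found in smooth muscle. Kcnn3 (-0.64, adjusted p = 0.0335) and Scn3a (-0.61, adjusted p = 0.0201) were lower, at 3.18 to 4.93 against 5.06 to 9.99 TPM and at 0.438 to 0.774 against 0.876 to 2.67 TPM. Against PBS neither Kcnn3 nor Scn3a was called after EEV4-PMO or after PMO. The calls of Kcna5, Kcnn3, Scn3a and Kcnj12 were lost in 7, 5, 4 and 4 of 8 fits without 1 library, with adjusted p up to 0.0906, 0.14, 0.0889 and 0.0737, and Kcnj12 also after rescaling (0.094).

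Between 30 and 15 mg/kg of EEV4-PMO no channel gene was called (limma), where 0.0396% of all genes were. The 3 channel genes at an unadjusted p under 0.05 have no count of all genes at that threshold beside them. The log2 difference, 30 minus 15 mg/kg, was 0.19 (SE 0.11) for Scn4b, 0.09 (SE 0.05) for Scn4a and 0.10 (SE 0.19) for Kcnab1.

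Against FVB PBS, 8 channel genes were called after EEV4-PMO at 30 mg/kg, 2 higher and 6 lower, where 11.4% of all genes were (7.94% higher and 3.48% lower). After rescaling 2 were higher and 7 lower, with 913 and 863 of all genes. Scn4a and Scn4b were not called (0.07 and 0.15, SE 0.05 and 0.11, adjusted p = 0.399 and 0.388), although all 4 Scn4a libraries lay above the FVB ones. Kcnab1 (-1.64, adjusted p = 1.02e-05), Kcnf1 (-0.94, adjusted p = 0.0022) and Kcns1 (-0.52, adjusted p = 0.01) were among those lower than in FVB. Kcnh2, a repolarising channel of the heart, was lower (-0.62, adjusted p = 0.0246), and Kcnn3 (0.68, adjusted p = 0.0249) and Scn2b (0.36, adjusted p = 0.0356) were higher. These 3 lost their calls in 4, 5 and 5 of 8 fits without 1 library (up to 0.0954, 0.0832 and 0.134).

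**Figure D3:**
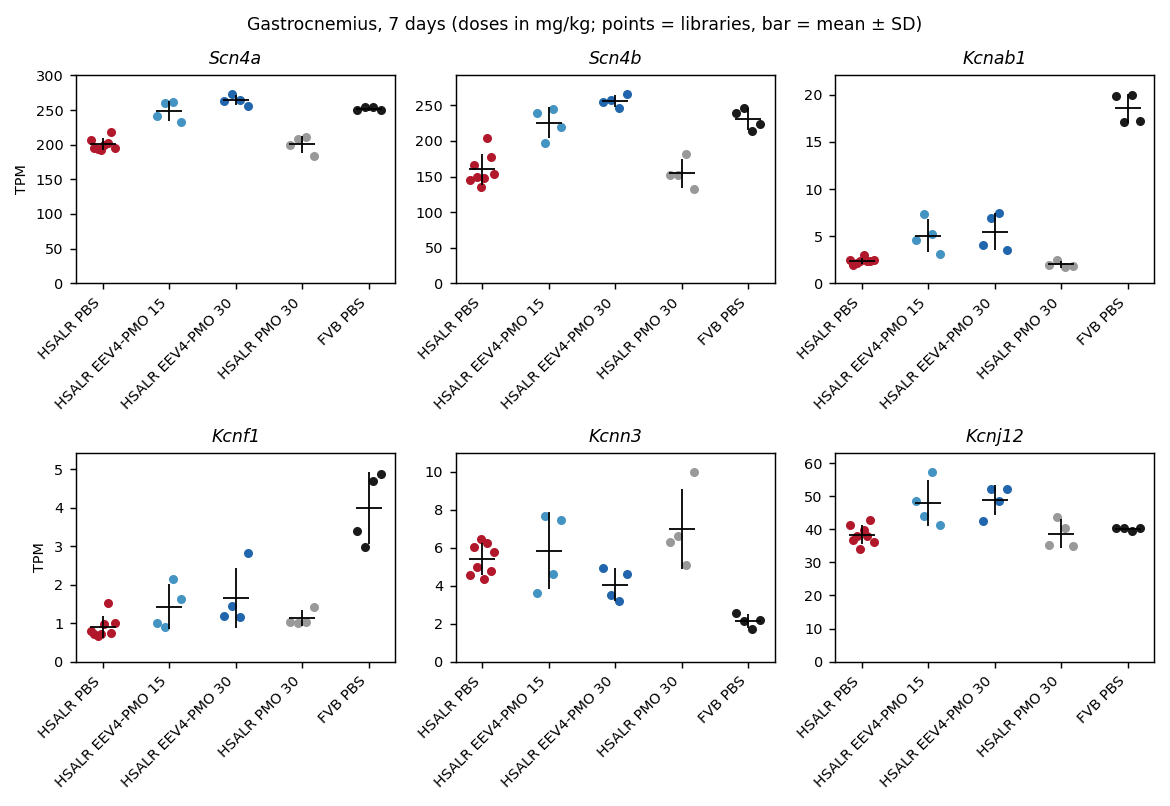
TPM per library of 6 channel genes in gastrocnemius at 7 days, with mean and SD, for HSALR PBS (n = 8), EEV4-PMO at 15 and 30 mg/kg, PMO at 30 mg/kg and FVB PBS (n = 4 each). Scn4a after EEV4-PMO lies at 232 to 274 TPM, above all PBS and PMO libraries, while Kcnab1 after EEV4-PMO lies at 3.06 to 7.45 TPM, between PBS and the FVB libraries of 17.1 to 19.96 TPM.

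The time course followed 15 mg/kg of EEV4-PMO over the first days. In gastrocnemius few channel genes moved. At 1 day 2 were called, both lower, where 1.24% of all genes were called, 0.178% higher and 1.06% lower. One was Kcna5 (-0.95, adjusted p = 0.0425), with 2.60, 5.43, 7.51 and 6.05 TPM at 1 day and 10.2, 10.6, 12.8 and 9.59 TPM after PBS. The groups did not overlap, yet the call was lost in 7 of 8 fits without 1 library (adjusted p up to 0.162). At 2 and 4 days no channel gene was called (limma), where 0.951% and 0.502% of all genes were (at 4 days 0.324% higher and 0.178% lower). Unadjusted, 6 and 5 channel genes had p under 0.05, with no count of all genes at that threshold beside them. Kcna5 at 2 days had 4.10, 6.66, 4.56 and 7.05 TPM (-0.86, adjusted p = 0.0709). Scn4a and Scn4b had -0.04 and -0.03 at 4 days (SE 0.11 and 0.12). Without replicate 2, the library with lymphocyte markers, the count at 4 days was also 0.

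In quadriceps the number of channel genes called against PBS grew with time, to 1 and 2 on the first and second day, 7 at 4 days and 8 at 7 days, where 0.456%, 1.66%, 7.84% and 12% of all genes were called. At 1 day 0.363% of all genes were higher and 0.0925% lower. At 2 days 1.08% of all genes were higher, and after rescaling 1 channel gene was called, with 119 of all genes higher and 236 lower. At 4 days 4.56% of all genes were higher and 3.28% lower, and at 7 days 5.28% and 6.71%. These comparisons share their 4 PBS libraries. Kcnj8, the pore of the ATP-sensitive channel of vessel walls, rose first, with 15.6, 16.2, 13.8 and 15.0 TPM at 1 day, 11.4, 13.2, 15.3 and 16.9 TPM at 2 days and 8.81, 8.74, 6.70 and 6.95 TPM after PBS. Both times lay above all PBS libraries (0.88, adjusted p = 0.00323, and 0.78, adjusted p = 0.00542), and at 4 and 7 days the values were 0.05 and 0.01 (adjusted p = 0.905 and 0.972). The summed level of smooth muscle and pericyte markers was 556 to 652 TPM at 1 day and 510 to 707 TPM at 2 days, beside 473 to 567 TPM after PBS, and that of endothelial markers 247 to 379 TPM, 267 to 360 TPM and 195 to 272 TPM; their part in the Kcnj8 rise was not tested. Kcnj2 rose at 2 days to 58.0, 66.4, 58.5 and 58.9 TPM, against 38.2, 38.9, 29.2 and 27.3 TPM after PBS. The groups did not overlap (0.85, adjusted p = 0.0419), but the call was lost in 8 of 8 fits without 1 library (up to 0.132) and after rescaling (0.79, adjusted p = 0.0574).

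Of the genes called at 4 days 4 rose and 3 fell in quadriceps (2 and 3 without replicate 4). Kcnk5 had 5.20, 4.91, 6.13 and 6.01 TPM, against 0.807, 1.40, 1.31 and 0.906 TPM after PBS. This was the largest change, at 1.65 (SE 0.21, adjusted p = 3.99e-05), and at 7 days it was 1.17 (adjusted p = 0.00109) with 5.16, 4.32, 2.05 and 3.88 TPM. Kcnab1 had 10.96, 4.65, 6.97 and 6.04 TPM at 4 days and 3.86, 4.43, 6.07 and 2.54 TPM at 7 days, against 2.56, 1.03, 1.66 and 1.72 TPM after PBS. All libraries of 4 days were above PBS (1.54, SE 0.22, adjusted p = 1.31e-04), and at 7 days replicate 4 fell within the PBS range (0.91, adjusted p = 0.0097).

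Kcnn3 rose further above its already raised HSALR level, to 13.1, 20.9, 25.3 and 34.9 TPM at 4 days, against 6.63, 11.6, 8.38 and 6.74 TPM after PBS. The libraries did not overlap (1.35, SE 0.33, adjusted p = 0.0119), and without replicate 4, the highest, the value was 1.14 (adjusted p = 0.0566). At 7 days Kcnn3 spread over 7.00, 11.8, 5.28 and 26.2 TPM and was not called (0.33, adjusted p = 0.56). Markers of denervated fibres moved beside it: 5 of 8 rose at 4 days (Chrna1, Gadd45a, Musk, Myog and Runx1), with summed levels of 758 to 1230 TPM, against 132 to 291 TPM after PBS, and at 7 days 2 of 8 rose with sums of 196 to 578 TPM. Their part in the channel changes was not tested.

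Kcna7 and Kcnc1, fast voltage-gated pores, fell together. Kcna7 had 90.9, 120.7, 91.0 and 87.2 TPM at 4 days and 124, 119.7, 122.5 and 82.7 TPM at 7 days, against 175, 157, 171 and 172 TPM after PBS. Both groups were wholly below PBS (-0.80, adjusted p = 1.25e-04, and -0.60, adjusted p = 0.00161). Kcnc1 had 27.3, 51.6, 35.5 and 42.1 TPM at 4 days and 49.02, 49.6, 40.5 and 40.2 TPM at 7 days, against 66.0, 66.3, 87.4 and 71.3 TPM after PBS. It too lay wholly below PBS (-0.91, adjusted p = 3.36e-04, and -0.68, adjusted p = 0.00351). Scn3a fell at 4 days (-0.59, adjusted p = 3.37e-04) and 7 days (-0.42, adjusted p = 0.005), to 0.139 to 0.331 TPM and 0.260 to 0.546 TPM, against 0.693 to 1.16 TPM after PBS.

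Scn4a rose to 278, 255, 265.5 and 281.5 TPM at 4 days and 288, 315, 318 and 325 TPM at 7 days, against 234, 215, 246 and 228 TPM after PBS. The libraries of both times were above PBS, at 0.23 (adjusted p = 0.0374, lost in 6 of 8 fits without 1 library, up to 0.116, and at 0.218 after rescaling) and 0.43 (SE 0.07, adjusted p = 2.9e-04). Scn4b missed the threshold at both times, with 0.12 and 0.21 (adjusted p = 0.58 and 0.158). Kcne1l rose at 7 days to 4.44, 6.90, 5.40 and 5.41 TPM, against 1.76, 1.16, 0.523 and 1.79 TPM after PBS (1.53, adjusted p = 0.00446). Kcnj11 fell at 7 days to 86.0 to 95.6 TPM, against 103 to 151 TPM after PBS (-0.43, adjusted p = 0.0416, lost in 7 of 8 fits without 1 library, up to 0.132, and at 0.0502 after rescaling).

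The change from PBS at 4 days was compared between the muscles, quadriceps minus gastrocnemius. Each muscle is a cohort of its own here, so tissue and cohort cannot be told apart. Kcnk5 passed, at 1.46 (SE 0.39, adjusted p = 0.0461), where 1.3% of all genes did. In gastrocnemius Kcnk5 had 1.44, 6.76, 0.863 and 1.11 TPM at 4 days and 1.22, 1.70, 2.04 and 1.43 TPM after PBS, with replicate 2 alone far above the rest. Without that library the tissue difference was 1.92 (adjusted p = 1.7e-04), and in 14 of 16 fits without 1 library the call was lost (up to 0.103). Kcnab1 had a tissue difference of 1.11 (adjusted p = 0.0978), Kcnn3 of 1.09 (adjusted p = 0.307) and Kcna7 of -0.46 (adjusted p = 0.225). Without gastrocnemius replicate 2 the count was 2 higher and 2 lower in place of 1 and 0, with Kcnn3 (1.57, adjusted p = 0.0411), Kcna7 (-0.67, adjusted p = 0.00692) and Kcnc1 (-0.70, adjusted p = 0.0309) called as well and Kcnab1 at 0.87 (adjusted p = 0.18). Without quadriceps replicate 4 none was called, with Kcnk5 at 1.42 (adjusted p = 0.0943). The share of all genes called in these 2 fits is not given here, so their counts have no background beside them.

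Set against FVB PBS, quadriceps at 7 days of EEV4-PMO differed in 8 channel genes, 4 higher and 4 lower, where 11.2% of all genes did (6.09% higher and 5.07% lower); the FVB mice were sampled at 4 days. Kcnab1 (-2.41, adjusted p = 1.13e-06), Kcns1 (-0.97, adjusted p = 0.00246) and Kcnf1 (-0.74, adjusted p = 0.0193) were among those lower than in FVB. Kcnn3 (2.18, adjusted p = 2.38e-04), Kcnk5 (1.39, adjusted p = 2.43e-04), Kcne1l (1.21, adjusted p = 0.022) and Kcnq5 (1.04, adjusted p = 0.0129) were higher. Scn4a and Scn4b were not called (0.08 and -0.22, SE 0.07 and 0.09, adjusted p = 0.436 and 0.137). Leaving out replicate 4 of the treated group ended the calls of Kcnq5 (0.89, adjusted p = 0.0583) and Kcnf1 (-0.71, adjusted p = 0.0596), Kcnf1 lost its call also without replicate 2 (0.0632), and Kcne1l in 3 of 8 such fits (up to 0.0669). Denervated fibre markers were higher in 6 of 8, at 196 to 578 TPM in the treated group and 89.3 to 105 TPM in FVB.

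**Figure D4:**
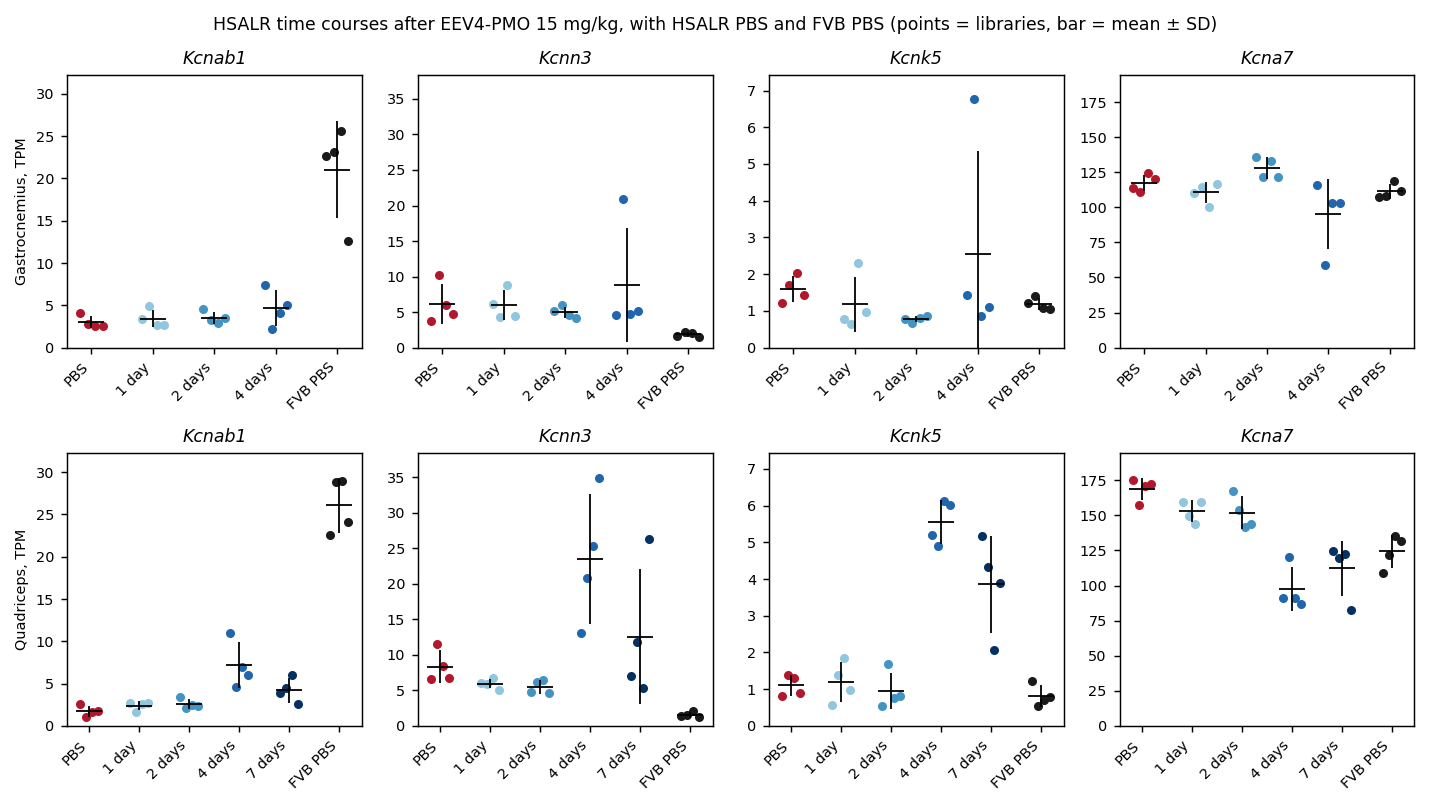
TPM per library of Kcnab1, Kcnn3, Kcnk5 and Kcna7 over the days after EEV4-PMO (15 mg/kg), with mean and SD (n = 4 each), gastrocnemius above and quadriceps below, beside HSALR PBS and FVB PBS. In quadriceps at 4 days Kcnk5 lies at 4.91 to 6.13 TPM and Kcnn3 at 13.1 to 34.9 TPM, above all PBS libraries, and Kcna7 at 87.2 to 120.7 TPM, below them.

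Nascent and total RNA of HSALR PBS quadriceps were compared to see which channel transcripts were more abundant in newly made RNA than in the standing pool. TPM are shares of each library, and 37 of the 48 channel genes (77.1%) differed, 25 higher and 12 lower in nascent RNA, where 76.6% of all genes did. Since rescaling by the median of ratios moved the median of all genes by -0.66, it changed the split to 16 higher and 19 lower, with 5464 and 6043 of all genes. Kcnj2 was furthest up, at 564, 499.6, 398 and 393 TPM in nascent RNA and 80.6, 83.6, 63.6 and 60.6 TPM in total RNA (2.67, adjusted p = 3.33e-06, and 1.85 rescaled). Kcnf1 (1.77 and 1.20 rescaled), Kcnc1 (1.67 and 0.86), Kcnk6 (1.70 and 0.98), a two-pore channel, Kcnn3 (1.65 and 0.90) and Kcnma1 (1.51 and 0.71) were higher on both scales.

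Kcnj8 was furthest down, at 1.65, 1.25, 1.62 and 1.15 TPM in nascent RNA and 11.8, 13.9, 13.6 and 15.5 TPM in total RNA (-2.60, adjusted p = 3.31e-07, and -3.19 rescaled). Kcna5 (-1.73 and -2.30 rescaled) was lower too. Scn4a had 332 to 393 TPM in nascent and 204 to 216 TPM in total RNA (0.78, and -0.04 rescaled). Scn4b (0.62 and -0.20), Kcna7 (0.65 and -0.17) and Kcnc4 (0.59 and -0.22) turned round in the same way on rescaling. All 8 endothelial and 7 of 9 smooth muscle and pericyte markers were lower in nascent RNA, at 45.6 to 63.3 against 220 to 318 TPM and 259 to 304 against 455 to 553 TPM. Lower sums were not confined to these cells. Fast fibre markers had 66170 to 76300 against 113800 to 133400 TPM, and Schwann cell and axon markers 59.65 to 75.05 against 126.7 to 172.2 TPM. Sums of denervated fibre markers (342 to 490 against 130 to 187 TPM) and lymphocyte markers (23.5 to 31.7 against 2.37 to 3.01 TPM) were higher. Those of slow fibre, macrophage and adipocyte markers overlapped. The part of these cells was not tested.

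Within that cohort EEV4-PMO gave few channel calls. In total RNA no channel gene was called at 1 day (limma), where 0.0132% of all genes were, and 7 channel genes had an unadjusted p under 0.05. At 2 days Kcna7 fell and Kcnj12 rose, where 1.68% of all genes were called. Kcna7 had 116, 109 and 103 TPM at 2 days and 163, 151, 159 and 168 TPM after PBS, with no overlap (-0.55, adjusted p = 0.0185). Kcnj12 had 53.8, 53.7 and 64.2 TPM at 2 days and 44.1, 42.5, 43.3 and 36.9 TPM after PBS (0.45, adjusted p = 0.0465). These calls were lost in 4 and 6 of 7 fits without 1 library (up to 0.0767 and 0.127). After rescaling 1 channel gene was higher and 1 lower, with 221 and 200 of all genes, where 39 and 215 were before it. In nascent RNA none was called at 1 or 2 days, where 0.033% and 0.198% of all genes were called. Unadjusted, 7 and 9 channel genes had p under 0.05 there. For neither kind of RNA is the count of all genes at that unadjusted threshold given here. Rescaling moved the median of all genes in nascent RNA at 2 days by 0.10 and gave 1 call in each direction, with 21 and 35 of all genes. Nascent Kcna7 had 157, 152 and 116 TPM at 2 days and 263, 224, 244 and 279 TPM after PBS (-0.83, adjusted p = 0.0618).

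At 3 months after EEV4-PMO 2 channel genes were called in quadriceps, 1 in each direction, where 6.92% of all genes were, 0.0859% higher and 6.84% lower. Kcnab1 had 6.49 to 9.92 TPM after EEV4-PMO (median 9.44 TPM, n = 6) and 2.63, 4.38, 4.94 and 6.33 TPM after PBS. The groups did not overlap, by a narrow margin, with 0.82 (SE 0.20, adjusted p = 0.0407). Kcnn3 had 2.36 to 4.80 TPM after EEV4-PMO (median 3.19 TPM) and 16.3, 10.8, 4.94 and 8.12 TPM after PBS, again apart (-1.27, SE 0.28, adjusted p = 0.0338). Rescaling moved the median of all genes by 0.16, left 2 of all genes higher and 2 lower, and left neither channel gene called (Kcnab1 0.98, adjusted p = 0.123, and Kcnn3 -1.11, adjusted p = 0.158), and fits without 1 library lost Kcnab1 in 9 of 10 and Kcnn3 in 7 of 10 (up to 0.117 and 0.11). Denervated fibre markers summed to 115 to 191 TPM after EEV4-PMO and 137 to 197 TPM after PBS, with none called. Scn4a and Scn4b had -0.12 and 0.02 (adjusted p = 0.236 and 0.926).

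The splicing events were read as percent spliced in (PSI), the share of junction-informed reads that include an exon or intron, here between 0 and 1. Of the 192 events 68 lay in Kcnma1, 18 each in Kcnq5 and Scn4a, 11 in Scn3a and 10 in Kcnt2, and 136 had a value in every library of at least 1 cohort and could be tested. Many were near their limits: of 32 with a value in all 98 libraries, 24 averaged at least 0.95 or at most 0.05. An event was called at adjusted p under 0.05 with a PSI difference of at least 0.1 (limma, over all events tested). In gastrocnemius at 7 days 1 of 52 channel events was called between HSALR and FVB, where 1.07% of all events were, and 1 of 52 after EEV4-PMO at 30 mg/kg, where 0.838% were. For EEV4-PMO against PMO 1 was called, where 0.688% of all events were. In no other comparison was a channel event called, where 0 to 0.585% of all events were, so this count does not set the channel events apart. In each, 0 to 6 channel events had an unadjusted p under 0.05, and the count of all events at that threshold is not given here.

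A pair of Kcnma1 exons, called in no comparison with all libraries, were chosen for description after their values were seen. Kcnma1 encodes the pore of the large calcium-activated potassium channel, whose exons near the C-terminal regulator domain are spliced in many ways. The first, of 81 bases at chr14:23336040-23336120 on the minus strand of GRCm38, is coding in all 4 GENCODE transcripts that hold it. The 81 in its label below is this length and not an exon number. The second, at chr14:23425567-23425740, is coding in all 9 that hold it and is the exon induced by stress hormones in other tissues. Both are printed on the gene's strand with 4-base words that muscleblind proteins bind in capitals, namely TGCT or TGCC and also CGCT or CGCC.
Kcnma1 exon 81: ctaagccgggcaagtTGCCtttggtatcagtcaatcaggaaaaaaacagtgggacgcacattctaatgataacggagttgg
Kcnma1 stress-hormone exon: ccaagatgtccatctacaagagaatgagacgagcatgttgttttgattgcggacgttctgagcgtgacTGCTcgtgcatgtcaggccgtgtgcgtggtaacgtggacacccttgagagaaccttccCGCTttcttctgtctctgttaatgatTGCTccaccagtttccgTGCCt

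The first exon holds 1 such word and the stress-hormone exon 4, counted on the gene's strand. At least 1 word occurs in 64% of the 1752 annotated exons of 81 bases, and in 90.7% of the 998 that are as long as the stress-hormone exon, of which 33.4% hold at least 4. The word is therefore common, and its presence says nothing of binding.

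The 81-base exon had a PSI of 0.73, 0.772, 0.709, 0.766, 0.659, 1, 0.693 and 0.869 in the 8 HSALR PBS libraries of gastrocnemius at 7 days and 0.96, 0.958, 0.922 and 0.977 in FVB. Only replicate 6, at 1, lay within or above the FVB range, and the difference was -0.179 (SE 0.055, adjusted p = 0.163); without it the value was -0.212 (adjusted p = 0.0183), while the 11 other fits without 1 library gave adjusted p of 0.138 to 0.334. After EEV4-PMO it was 0.971, 0.866, 0.81 and 0.871 at 15 mg/kg and 0.875, 1, 0.92 and 1 at 30 mg/kg, and 0.789, 0.563, 0.833 and 0.686 after PMO. The 30 mg/kg libraries were all above the PMO libraries. The difference from PBS at 30 mg/kg was 0.174 (adjusted p = 0.195) and 0.206 without PBS replicate 6 (adjusted p = 0.0254), and that from PMO was 0.231 (adjusted p = 0.127). Thus at 7 days the exon passed only in fits that left out PBS replicate 6. In the 4-day gastrocnemius its PSI was 0.742, 0.841, 0.898 and 0.645 in HSALR and 0.925, 0.887, 0.879 and 0.833 in FVB (-0.0995, adjusted p = 0.715). In quadriceps it was 0.799, 0.925, 0.758 and 0.705 in HSALR and 0.829, 0.893, 0.892 and 0.89 in FVB (-0.0792, adjusted p = 0.583). Both of these pairs of groups overlapped. Against PBS, EEV4-PMO at 15 mg/kg gave 0.281 in nascent RNA at 2 days (adjusted p = 0.785, limma), at 0.884 to 1 against 0.629 to 0.674. Total RNA of that cohort had 0.167 at 2 days (adjusted p = 0.8). Quadriceps at 1, 2, 4 and 7 days had 0.0815, 0.102, 0.0915 and 0.11, and gastrocnemius at 1, 2 and 4 days -0.048, 0.033 and 0.0705. None of these was called.

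The stress-hormone exon was seen mostly at 3 months. Its PSI was 0.12 to 0.523 after EEV4-PMO (median 0.231, n = 6) and 0.078, 0.084, 0.147 and 0.422 after PBS at that time. The treated and PBS libraries overlapped, with a difference of 0.0874 (SE 0.09, adjusted p = 0.765). In the other 88 libraries 86 had a value, of which 77 were 0 and 3 were above 0.05, the highest being 0.333 in PBS replicate 6 of the 7-day gastrocnemius. The 34 other quadriceps libraries of total RNA had 0 to 0.13, with 32 at 0. The 3-month mice form a cohort of their own, so that time and cohort cannot be told apart, and no test between times was made.

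**Figure D5:**
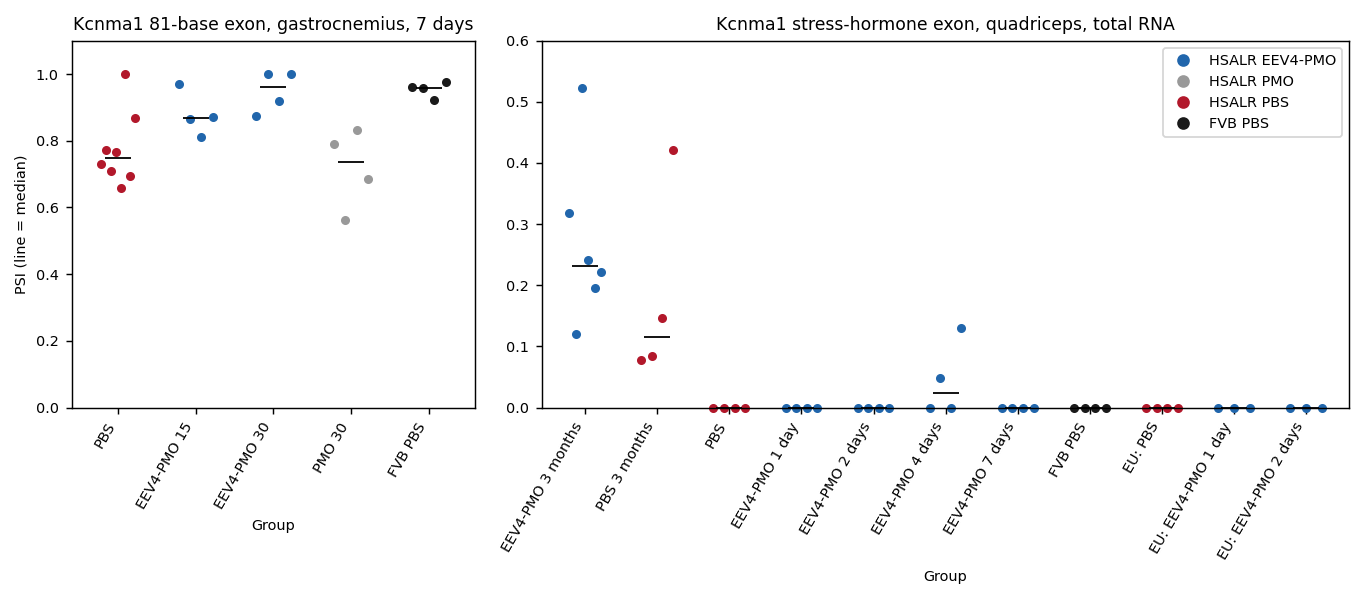
PSI of the Kcnma1 81-base exon in gastrocnemius at 7 days (left) and of the stress-hormone exon in quadriceps total RNA (right), with points for libraries that have a value and a line at the group median. The 81-base exon lies at 0.875 to 1 after EEV4-PMO at 30 mg/kg and 0.563 to 0.833 after PMO, and the stress-hormone exon lies at 0.12 to 0.523 after EEV4-PMO and 0.078 to 0.422 after PBS at 3 months.

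Other channel exons varied without a call. The skipped exons of Kcnq5 of 27 bases (chr1:21466383-21466409) and 57 bases (chr1:21461551-21461607) ranged over 0 to 1 (median PSI 0.583) and 0.389 to 1 (median 0.844) across libraries. A Kcnma1 exon of 87 bases ranged over 0.477 to 1 (median 0.794). The deposited PSI values carry no counts, so their depth is unknown.

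Across all comparisons other than nascent against total RNA, 26 of the 48 channel genes were called at least once and 22 in none. The same share over all genes is not given here, so this count does not set the channel genes apart. Kcng4, Kcnn4 and Kcnip3 were called in no comparison of any kind. Kcnc4, the second most abundant voltage-gated pore, was among the 22, with a lowest and highest log2 difference of -0.34 and 0.46 in the comparisons of treatment and genotype. Kcnma1, Kcna1 and Kcnab2 were also called against total RNA alone. Kcnma1 came closest at 30 mg/kg of EEV4-PMO, with 0.43 (adjusted p = 0.0516).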

How the data were processed

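RNA of 98 mouse muscle libraries was sequenced after rRNA depletion with a directional kit, per the labels' protocols; the EU cohort used another RNA isolation kit. The authors deposited TPM per gene, a length-corrected transcript level, and PSI, the fraction of inclusion from 0 to 1, per splicing event; cutadapt, STAR, kallisto and GRCm38 (mm10) are named in the submitters' processing notes, with no roles, and the splicing tool's version is not given in the sources used here. No counts were used, so depth is unknown. TPM are shares of a fixed total.

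Genes with a mean of at least 0.5 TPM over all libraries (15139) were tested as log2(TPM + 1), which understates changes of low genes, with limma 3.58.1 (R 4.3.3), 1 fit per cohort with an intensity trend and no covariate. Nascent against total RNA was fitted on both kinds of EU library together, unpaired, and the differences between muscles on both time courses together. PSI was tested with limma on the linear scale where no library of a cohort lacked a value. All p-values were Benjamini-Hochberg adjusted over all genes or events, and the scripts were tested on simulated data. Alternatives were a pseudocount of 0.1, no level filter, median-of-ratios rescaling, the compared groups alone, a replicate block, pairing of the 2 muscles by number, a logit scale, a minimum PSI difference of 0.2 and leaving out each library.

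The genes, marker lists and tests were chosen with earlier results of these data known. Named genes were those called in all 3 genotype comparisons, up to 8 called genes with the largest change in each other comparison, the 10 most abundant, and genes listed for their known roles in muscle; some genes and 1 splicing event are not reported here, though counts include them. Nascent and total libraries of a number were paired by the data, since all 4 pairs correlated above 0.1 (0.123 to 0.277); of the other comparisons, the 2 between muscles included, none met this. Exon annotation is GENCODE M21. Tables were handled in Python 3.11.15 with pandas 2.3.3, scipy 1.17.1 and matplotlib 3.10.9.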

Additional observations from a re-analysis of the deposited data

Results flagged for a closer look

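Single libraries stood apart in 10 of 120 sets of values examined, by the gap to the nearest library relative to the range. Each set was 1 gene or event in 1 group of 4 to 8 libraries. Chance gives about 1 in 20 such sets, but sets that share libraries are not independent. The list is not complete: Kcnk5, Kcnk3 and Kcnn4 in replicate 2 of gastrocnemius at 4 days of EEV4-PMO, described above, are not in it.

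HSALR PBS replicate 6 of the 7-day gastrocnemius was apart in Kcnf1 and Kcnk2. Its Kcnf1 level was 1.518 TPM, with 0.6747 to 1.002 TPM in the 7 others, and its Kcnk2 level 0.6961 TPM (1.022 to 1.31 TPM). In the same cohort Kcnf1 was 2.816 TPM in replicate 4 of EEV4-PMO at 30 mg/kg (1.166 to 1.433 TPM in the others), and Kcns1 was 1.544 TPM in FVB replicate 2 (1.227 to 1.274 TPM).

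In quadriceps Kcna7 was 120.7 TPM in replicate 2 at 4 days (87.2 to 90.98 TPM) and 82.74 TPM in replicate 4 at 7 days (119.7 to 124.3 TPM), and that 7-day library had Kcns1 at 0.1415 TPM (0.5786 to 0.6283 TPM). Kcnj2 was 66.41 TPM in replicate 2 at 2 days (57.98 to 58.92 TPM). Scn3a was 1.161 TPM in HSALR PBS replicate 2 (0.693 to 0.7324 TPM). In gastrocnemius of the 4-day cohort Kcnab1 was 4.052 TPM in HSALR PBS replicate 1 (2.538 to 2.769 TPM).

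The 4-day response of Kcnk5 to EEV4-PMO differed between muscles, by 1.457 on the log2 scale (quadriceps minus gastrocnemius, adjusted p = 0.0461, limma). The call was lost in 14 of 16 fits without 1 library (adjusted p up to 0.103).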

How the results depend on the processing

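Counts of channel genes called moved by over 1.5 times mainly where they were small. With the compared groups alone, gastrocnemius had 0 at 1 day and 3 at 2 days, quadriceps at 2 days 1, EU total RNA at 2 days 1 and the 4-day tissue difference 0. With no level filter, gastrocnemius at 1 day, quadriceps at 2 days, EU total RNA at 2 days, 3 months and the genotype difference between tissues each had 1, and the 4-day tissue difference 0. Under a replicate block, gastrocnemius at 1 day had 1, and EU total RNA at 2 days and 3 months 0; these numbers do not pair libraries. Between muscles, libraries of a group and number correlated above 0.1 in 6 of 8 pairs for the genotype difference and 4 of 8 for the EEV4-PMO difference (0.0319 to 0.228 in both), and 7 and 6 of 8 correlated best with their own number, so the data do not pair them by that criterion. A replicate block by group and number across muscles, added after the data were seen, gave 0 calls for genotype and 4 in place of 1 for EEV4-PMO, with Kcnk5 at 1.46 (adjusted p = 0.0242). The share of all genes called under that block is not given here. After rescaling, gastrocnemius at 1 day and quadriceps at 2 days had 1, nascent RNA at 2 days 2 and 3 months 0. A minimum PSI difference of 0.2 left 0 events for genotype, 30 mg/kg and EEV4-PMO against PMO.

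Leaving out 1 library gave 12 to 16 calls for genotype in gastrocnemius at 7 days, 3 to 6 at 4 days and 9 to 12 in quadriceps, 5 to 8 at 15 mg/kg, 7 to 10 at 30 mg/kg, 5 to 8 against PMO and 5 to 9 against FVB. It gave 0 to 3 in gastrocnemius at 1 day, 1 to 3, 1 to 2, 5 to 8 and 7 to 8 in quadriceps at 1, 2, 4 and 7 days, 5 to 10 at 7 days against FVB, 0 to 7 in EU total RNA at 2 days, 0 to 6 at 3 months and 34 to 37 for nascent against total RNA. The tissue differences had 0 to 1 (genotype) and 0 to 4 (EEV4-PMO). Events had 1 to 2 for 7-day genotype and 30 mg/kg and 0 to 1 for quadriceps genotype.

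Between nascent and total RNA, rescaling turned round Kcna7 (-0.168), Kcnc4 (-0.224), Scn4a (-0.0431) and Scn4b (-0.202); it divides out the median shift of all genes. Of single-gene results, 111 kept their side of the threshold with a pseudocount of 0.1 and 4 did not, 106 and 9 with no filter, 102 and 13 with a block, and 97 and 18 with the compared groups alone; after rescaling 99 kept it, 12 lost it and 4 turned round. For nascent against total RNA, where the data pair the libraries, the count under the block was 37, the same as without it, and Kcnq1 lost its call (-0.27, adjusted p = 0.0568). The cause of the other changes was not tested. Absent counts, the precision of low genes and of PSI could not be given.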
